A study of Mus musculus with 6 samples.

Results

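The transcripts of the insulin receptor and PI3K-Akt-mTOR cascade were examined in mouse hearts, as 38 genes among the 54532 gene identifiers of the expression table. The members were the rows whose Ensembl identifier maps in GENCODE to a listed symbol, and they were sorted by role into receptor and substrates (5 genes), PI3K subunits (8), Akt and phosphatases (7), mTOR complexes (11) and FoxO factors with GSK3 kinases and target genes (7). All 38 were found, and all 38 passed the filter on low values, which left 14227 genes for testing. Chow mice (n = 3) received a standard diet. HFpEF mice (n = 3) were fed a high-fat diet, in which fat gave 60% of the calories, and drank water with L-NAME (0.5 g/L), which blocks nitric oxide synthases. Both groups were male C57BL/6 mice, 6 to 8 weeks old at the start, and hearts were taken after 12 weeks. No transgene or deletion was involved. Diet and L-NAME were always given together, so their separate parts cannot be told apart.

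Insulin binding activates the insulin receptor kinase, which phosphorylates the IRS adaptors and recruits class I PI3K to the membrane. PI3K makes the lipid that brings PDK1 and Akt together, and Akt then acts on TSC2, GSK3 and the FoxO transcription factors. In the heart this route carries the insulin signal for glucose uptake and, through mTOR complex 1, sets protein synthesis and growth. Most of its control is by phosphorylation, which RNA sequencing does not measure, so the values below are transcript levels only.

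No member differed between HFpEF and Chow hearts at an adjusted p under 0.05. Of all genes tested, 14 did, which is 0.0984%, and 8 (0.0562%) also reached an absolute log2 fold change of 2. Most members differed by little. The 3 HFpEF libraries were all above the Chow range in 5 members, namely Pik3cg, Pik3r5, Inpp5d, Phlpp2 and Rictor. They were all below it in 10, namely Grb14, Pik3cb, Akt1, Akt2, Tsc2, Rheb, Mtor, Rptor, Eif4ebp1 and Foxo4. The same held for 15.5% and 19.8% of all genes tested. These members include activating and inhibiting genes of the cascade in both directions. The receptor adaptor Grb14 was 27.1 ± 1.40 FPKM in Chow and 17.8 ± 4.40 in HFpEF (SD, n = 3 each). The regulatory subunit gene Pik3r5 had the greatest fold among the 38, at 0.357 ± 0.0980 FPKM in Chow and 1.58 ± 1.30 in HFpEF (SD, n = 3 each). Levels can be compared between genes only roughly, since the exon length used is that of all annotated exons, not of the transcripts present. FPKM counts fragments per this length and per a size set for each library. That size was 0.897 to 0.914 times the recovered reads in the Chow libraries and 1.03, 1.06 and 1.27 times in HFpEF 1, 2 and 3, so the deposited values carry a scaling between libraries beyond read number, whose form is not given in the sources used here.

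The sequences before the start sites of 4 members are shown because they are at the ends of this range, with Grb14 below Chow and Pik3r5, Pik3cg and Inpp5d above Chow in every HFpEF library. They are RefSeq sequences on GRCm38.p6, written 5′ to 3′ on the strand of the gene and trimmed where the window reached an annotated exon of the gene. The Grb14 start site lies inside the annotated gene, downstream of the first exon of another transcript. Capitals mark GGGCGG, the core of a GC box, and GAGGAA, a core bound by ETS factors such as PU.1 of blood cells, on either strand.
Grb14, minus strand, chr2:65022783-65023016: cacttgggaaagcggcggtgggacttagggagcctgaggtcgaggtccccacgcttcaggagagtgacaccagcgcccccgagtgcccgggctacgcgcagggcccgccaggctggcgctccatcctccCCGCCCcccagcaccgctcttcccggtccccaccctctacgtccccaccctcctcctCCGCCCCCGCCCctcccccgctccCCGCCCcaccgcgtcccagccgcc
Pik3r5, plus strand, chr11:68431875-68432120: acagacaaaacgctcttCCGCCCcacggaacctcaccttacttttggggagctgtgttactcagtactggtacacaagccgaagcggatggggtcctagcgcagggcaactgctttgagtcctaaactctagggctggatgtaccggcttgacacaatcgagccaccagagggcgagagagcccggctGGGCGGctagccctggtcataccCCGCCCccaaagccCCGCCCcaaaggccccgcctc
Pik3cg, minus strand, chr12:32208660-32208909: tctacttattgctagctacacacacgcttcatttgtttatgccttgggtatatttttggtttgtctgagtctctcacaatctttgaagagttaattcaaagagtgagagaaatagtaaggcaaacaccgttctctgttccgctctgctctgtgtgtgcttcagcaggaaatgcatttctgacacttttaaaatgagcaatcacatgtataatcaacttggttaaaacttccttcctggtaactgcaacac
Inpp5d, plus strand, chr1:87620062-87620311: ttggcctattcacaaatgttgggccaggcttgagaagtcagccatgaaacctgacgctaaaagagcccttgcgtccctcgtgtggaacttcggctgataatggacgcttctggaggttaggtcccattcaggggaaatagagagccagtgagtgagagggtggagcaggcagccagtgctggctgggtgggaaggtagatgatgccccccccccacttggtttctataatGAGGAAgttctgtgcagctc
The Grb14 and Pik3r5 stretches each held 4 GC box cores and no GAGGAA. The Inpp5d stretch held 1 GAGGAA and no GC box core, and the Pik3cg stretch held neither. G and C made up 75.2% of the Grb14 stretch and 38.8% of the Pik3cg stretch. A later Pik3cg start site has a window that runs into the first exon and is not shown, and it held 2 GAGGAA. Neither core was thus present in all 3 shown genes that were above Chow. The windows of Phlpp2 and Rictor, also above Chow in every HFpEF library, are not shown and held 2 and 4 GGGCGG. Over the 250 bases before each start site, 34 of the 38 members were in the RefSeq table, with 51 start sites. GGGCGG was present in 56.9% of these windows, against 33.0% of 32536 promoter windows of the same length over all genes. GAGGAA was present in 25.5% of them, against 23.4%. GTAAACA, a core bound by FoxO factors, was present in 3.92%, in the windows of Pik3cg and Akt1, against 3.17% of all windows. These backgrounds are not limited to the genes tested, so a difference from them is not read as a trait of the members. A match is a description of the letters and not a binding site.

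The libraries held 13076772 to 15574914 recovered reads in Chow and 13461734 to 16027084 in HFpEF. HFpEF 3 stood apart. On the first principal component, which held 42.3% of the variance, it scored 75.5, against 11.6 and 12.7 in HFpEF 1 and 2 and -35.8 to -31.7 in Chow. Mitochondrially encoded transcripts made up 7.17% of its reads, against 20.1% to 26.0% in the other 5 libraries. The tissue was labelled heart, and left ventricle in the methods of the study. The 12 ventricular cardiomyocyte markers were abundant in every library. However, atrial markers were also present in some. Myl7, the atrial myosin light chain, was 3.81, 0.289 and 237 FPKM in Chow 1, 2 and 3 and 974, 2073 and 8.60 in HFpEF 1, 2 and 3. Atrial RNA was thus high in Chow 3, HFpEF 1 and HFpEF 2, in both groups, and low in the remaining 3 libraries. No split of the libraries removes both features, since the HFpEF library with little atrial RNA is HFpEF 3. Values without HFpEF 3 are therefore given beside group medians and beside differences that they move most, and both subsets are given for the counts of members.

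**Figure D1:**
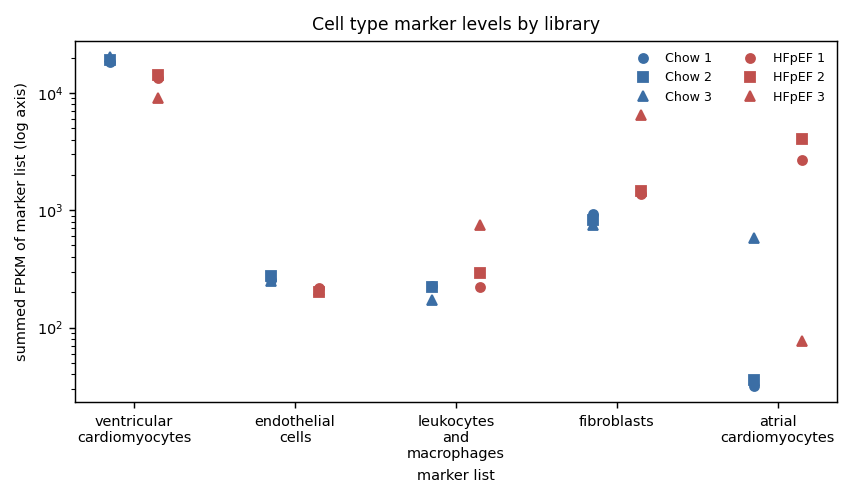
Summed FPKM (log axis) of 5 cell type marker lists in each library, with Chow in blue and HFpEF in red and the marker shape giving the mouse number. Ventricular cardiomyocyte sums are 18463 to 20134 in Chow and 8966 to 14065 in HFpEF, leukocyte sums reach 752 in HFpEF 3, and atrial sums are 579.6, 2686 and 4058 in Chow 3, HFpEF 1 and HFpEF 2.

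Levels of other cell types moved with the groups, and these are given here because they stand beside several results. All 12 ventricular cardiomyocyte markers were below every Chow library in HFpEF, with a median log2 fold change of -0.68 and sums of 13262, 14065 and 8966 FPKM against 18463 to 20134 in Chow. The 14 leukocyte and macrophage markers all had log2 fold changes above 0, of which 6 had an unadjusted p under 0.05. Their sum was 228, 220.1 and 173 FPKM in Chow 1, 2 and 3 and 220.2, 289 and 752 in HFpEF 1, 2 and 3, so the groups overlapped in the sum and HFpEF 3 was far above. Lyz2, the most abundant of them, was 534 FPKM in HFpEF 3 and 110 to 179 in the other 5 libraries. The 12 fibroblast markers all had log2 fold changes above 0, with sums of 741 to 928 FPKM in Chow and 1377, 1443 and 6428 in HFpEF. Endothelial marker sums were 247 to 272 FPKM in Chow and 201.1 to 219 in HFpEF. No leukocyte, fibroblast, endothelial or ventricular marker was at 0 in all libraries. In these bulk samples fewer cells of a type and less RNA per cell cannot be told apart, and the part of cell composition in the results below was not tested.

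The 10 adipocyte markers tested had a median log2 fold change of 2.41, with 5 above and 2 below Chow in every HFpEF library. Of the 14 genes with an adjusted p under 0.05 in the series, 4 were on this list, namely Adipoq, Cfd, Cidec and Car3, with log2 fold changes of 5.47, 8.29, 5.76 and 7.50. The summed level was nevertheless 541 to 583 FPKM in Chow and 338 to 533 in HFpEF, set mostly by Lpl and Fabp4, which heart muscle and vessels also express and which were below Chow. The adipocyte gene Cfd was listed at 0 in every Chow library and at 35.3, 37.8 and 22.9 FPKM in HFpEF 1, 2 and 3. The liver list, led by Hp, summed to 2.08 to 4.75 FPKM in Chow and 27.6 to 35.6 in HFpEF, with Alb and Fgb at 0 in all libraries. Its genes Hp and Cyp2e1 also had an adjusted p under 0.05, with log2 fold changes of 4.57 and 5.99. Cartilage, tendon and valve markers summed to 19.6 to 23.6 FPKM in Chow and 64.6 to 122 in HFpEF. Lymphocyte sums overlapped between groups, with 93.8 FPKM in HFpEF 2, where Ighm was 83.0. Neutrophil sums (1.56 to 5.90 FPKM), smooth muscle and pericyte sums (245 to 721) and red blood cell sums (279.9 to 1810.1) overlapped as well.

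An unadjusted p under 0.05 was found for 5 members, which is 13.2% of 38 against 23.4% of all genes tested. Of these, 1 was higher in HFpEF (background 10.2%) and 4 were lower (background 13.1%). The share among members was below the background. In 15 members (39.5%) the HFpEF libraries did not overlap with the Chow libraries, against 35.3% of all genes. HFpEF was above Chow in 5 of these (background 15.5%) and below in 10 (background 19.8%). The median log2 fold change was -0.06 over the members and -0.01 over all genes, with 20 members below 0 and 18 above. Under quantile normalization 23 members were below 0, since Irs2, Pik3r3, Mlst8 and Deptor turned below 0 and Akt1 above, and the groups did not overlap with HFpEF above in 2 members and below in 8. HFpEF 3 was the HFpEF library farthest from the Chow mean in 27 of 38 members (71.1%) and in 62.9% of all genes.

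Without HFpEF 3, 5 members had an unadjusted p under 0.05, against 25.2% of all genes, and 1 member, Grb14, had an adjusted p under 0.05, against 8.35% of all genes. With Chow 1, Chow 2 and HFpEF 3 alone, 19 members had an unadjusted p under 0.05 (50.0%, against 45.3% of all genes) and 14 had an adjusted p under 0.05 (36.8%, against 34.4%). That fit rests on a single HFpEF library, which is assumed to vary as the Chow libraries do. Under each of these 3 choices the members' share lay at or near the background or below it.

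**Figure D2:**
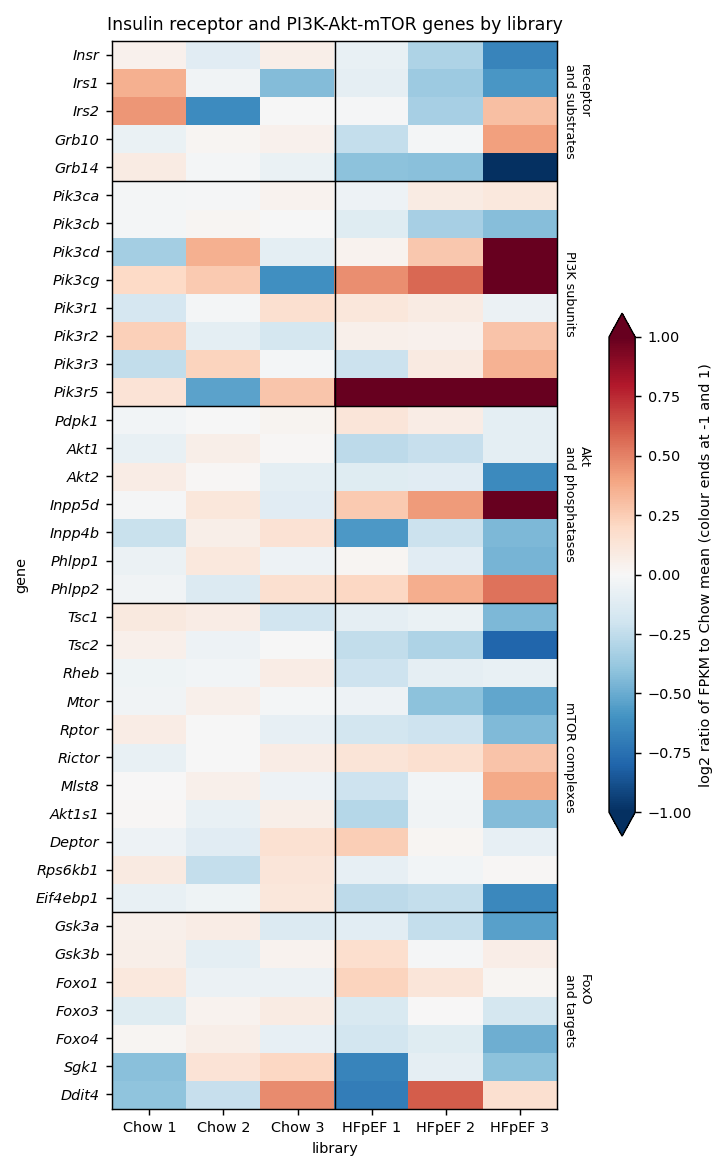
Heat map of each library's FPKM over the Chow mean, as a log2 ratio, for the 38 members (rows, by role) in the 6 libraries (columns), with red above and blue below the Chow mean and colours ending at -1 and 1. Pik3cd, Pik3cg and Inpp5d are darkest red in HFpEF 3, and Grb14 is darkest blue there. Pik3r5 is at the red end of the colours in every HFpEF library.

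The receptor and its adaptors had a median log2 fold change of -0.30, and -0.18 without HFpEF 3, with 3 of 5 below 0 and 1 with an unadjusted p under 0.05 (background 23.4%). Insr, the insulin receptor, was 14.3, 12.8 and 14.4 FPKM in Chow 1, 2 and 3 and 13.2, 11.2 and 8.75 in HFpEF 1, 2 and 3. HFpEF 1 lay within the Chow range, and HFpEF 2 and 3 lay below it. The log2 fold change was -0.34 (SE 0.16, limma adjusted p = 0.256) and -0.19 without HFpEF 3.

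Grb14 encodes an adaptor that binds the activated insulin receptor and inhibits its kinase. Its gene lies at chr2:64912476-65024987 on GRCm38. Its level was 28.7, 26.8 and 26.0 FPKM in Chow and 20.4, 20.3 and 12.7 in HFpEF, in the order of the mouse numbers, which is also used below. Every HFpEF library was below every Chow library, and HFpEF 3 was the lowest. The log2 fold change was -0.64 (SE 0.20, limma adjusted p = 0.148), and the exact permutation test gave p = 0.1, the smallest value that 3 against 3 libraries allow. Without HFpEF 3 it was -0.41 (limma adjusted p = 0.0272). From Chow 1, Chow 2 and HFpEF 3 alone it was -1.12. Ventricular cardiomyocyte marker sums were also lowest in HFpEF 3, and their part in the Grb14 difference was not tested.

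Grb10, the close relative of Grb14 and likewise a receptor inhibitor, was 9.15, 9.71 and 9.90 FPKM in Chow and 8.11, 9.44 and 12.7 in HFpEF. The groups overlapped, with HFpEF 1 lowest and HFpEF 3 highest of the 6 libraries. Within a library, Grb10 made up 24.2%, 26.6% and 27.6% of the sum of both genes in Chow and 28.4%, 31.8% and 50.0% in HFpEF. All HFpEF shares were above all Chow shares, with means of 26.1% ± 1.76 and 36.7% ± 11.6 (SD, n = 3 each, exact permutation p = 0.1). No background over other gene families was taken for this or the later shares, while 35.3% of all single genes did not overlap. The sum of both genes was 35.8 to 37.8 FPKM in Chow and 25.5 to 29.7 in HFpEF.

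Irs1 and Irs2, the docking proteins that link receptor and PI3K, varied as much within groups as between them. Irs1 was 3.05, 2.32 and 1.76 FPKM in Chow and 2.24, 1.85 and 1.59 in HFpEF. Irs2 was 4.32, 2.06 and 3.18 FPKM in Chow and 3.17, 2.54 and 3.93 in HFpEF. Both sets overlapped, and the log2 fold changes were -0.30 (SE 0.24) and 0.05 (SE 0.29), and -0.18 and -0.10 without HFpEF 3. The Irs2 share of the sum was 47.1% to 64.3% in Chow and 57.9% to 71.3% in HFpEF. Of the exon bases of Irs1, 30.9% are shared with an annotated gene on the opposite strand, and the strand setting of the read counting was not given in the sources used here.

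**Figure D3:**
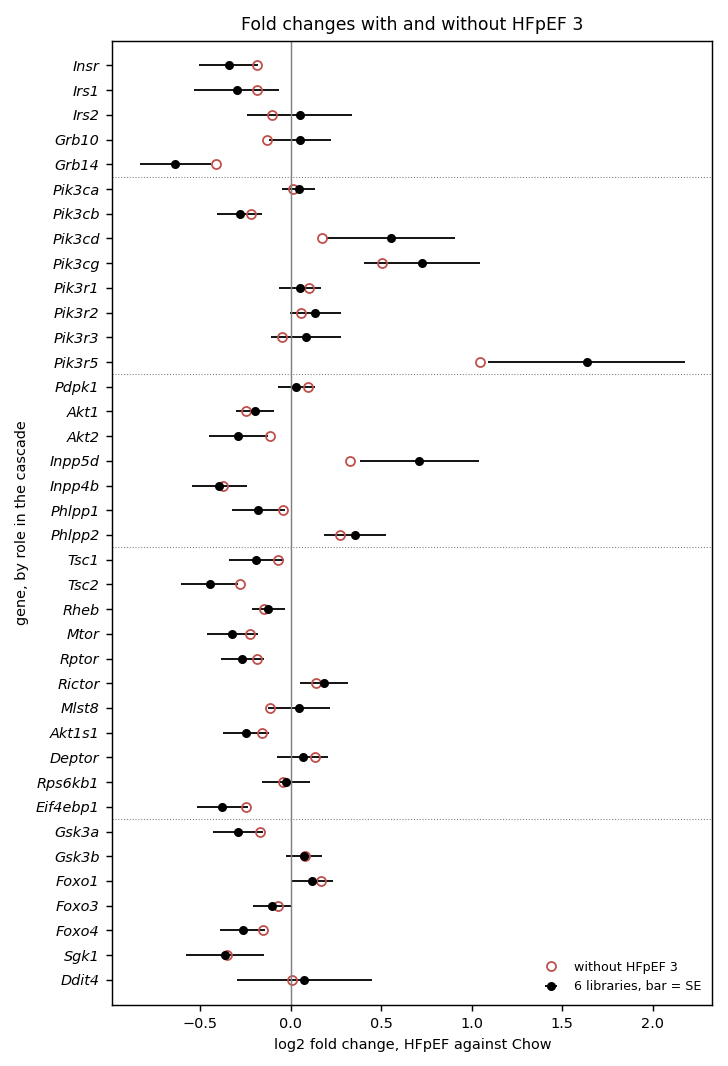
Log2 fold change of HFpEF against Chow for each member, by role from receptor (top) to FoxO and targets (bottom). Filled points with SE bars are from 6 libraries and open points are without HFpEF 3, which is closer to 0 for Grb14 (-0.41 against -0.64), Pik3r5 (1.04 against 1.63), Pik3cd (0.17 against 0.55) and Inpp5d (0.33 against 0.71).

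The PI3K subunits were the only role group with a median above 0, at a log2 fold change of 0.11 and of 0.08 without HFpEF 3, and 7 of 8 were above 0. The class IA catalytic subunits p110-alpha and p110-beta are made in most tissues. Pik3ca (p110-alpha), which serves the insulin receptor, was 7.85, 7.90 and 8.15 FPKM in Chow and 7.71, 8.41 and 8.56 in HFpEF, and the groups overlapped (log2 fold change 0.04, SE 0.09). Pik3cb (p110-beta) was 3.24, 3.32 and 3.28 FPKM in Chow and 3.02, 2.61 and 2.45 in HFpEF. The Chow libraries were close together and all 3 HFpEF libraries lay below them, with a log2 fold change of -0.28 (SE 0.13, limma adjusted p = 0.236).

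The other catalytic subunits, p110-delta and p110-gamma, are known chiefly from white blood cells. Pik3cd (p110-delta) was 1.68, 2.73 and 1.99 FPKM in Chow and 2.19, 2.57 and 5.33 in HFpEF. HFpEF 1 and 2 lay within the Chow range and HFpEF 3 was far above it, and the log2 fold change was 0.55 with HFpEF 3 and 0.17 without. Pik3cg (p110-gamma), the form driven by G protein-coupled receptors, was 0.775, 0.810 and 0.442 FPKM in Chow and 0.933, 1.01 and 1.60 in HFpEF. Here all HFpEF libraries were above all Chow libraries, with a log2 fold change of 0.73 (SE 0.32, limma adjusted p = 0.235) and 0.50 without HFpEF 3.

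Pik3r5 encodes p101, the regulatory partner of p110-gamma, and lies at chr11:68432121-68497849. It was 0.392, 0.246 and 0.432 FPKM in Chow and 0.727, 0.936 and 3.07 in HFpEF. These levels rest on 16 to 31 recovered reads in the Chow libraries and 56, 88 and 329 in the HFpEF libraries. All HFpEF libraries were above Chow, and HFpEF 3 was 8.60 times the Chow mean. The log2 fold change on log2(FPKM + 0.1) was 1.63 (SE 0.54, limma adjusted p = 0.162, exact permutation p = 0.1). Without HFpEF 3 it was 1.04 (limma adjusted p = 0.170). The 3 HFpEF libraries had the same order for Pik3r5, Pik3cd, Pik3cg and the leukocyte marker sum, namely HFpEF 1 lowest and HFpEF 3 highest. The fibroblast marker sum had this order too, as did further members, among them Pik3ca, Pik3r3, Phlpp2 and Rictor. In Chow the leukocyte sum was highest in Chow 1, Pik3r5 in Chow 3, and Pik3cd and Pik3cg in Chow 2. The leukocyte sum and Pik3cg were both lowest in Chow 3, Pik3r5 in Chow 2 and Pik3cd in Chow 1. The part of leukocyte number was not tested.

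The p85-type regulatory subunits hold the class IA enzymes inactive until an IRS protein binds. Pik3r1 was 12.5, 13.9 and 15.7 FPKM in Chow and 15.2, 14.9 and 13.5 in HFpEF. Pik3r2 was 13.4, 10.6 and 10.02 FPKM in Chow and 11.8, 11.7 and 13.8 in HFpEF. Pik3r3 was 2.25, 3.11 and 2.64 FPKM in Chow and 2.30, 2.84 and 3.40 in HFpEF, with 24.3% of its exon bases shared with another annotated gene on its strand. All 3 overlapped between groups. Their sum was 27.6 to 28.4 FPKM in Chow and 29.2 to 30.7 in HFpEF, all above Chow and a narrower range than that of Pik3r1 or Pik3r2 in Chow. Pik3r1 held 44.5% to 55.4% of this sum in Chow and 44.0% to 51.9% in HFpEF.

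Within each library the 4 catalytic genes were set against their sum. Pik3cb held 23.9%, 22.5% and 23.6% in Chow and 21.8%, 17.9% and 13.6% in HFpEF, all below Chow. Pik3cg held 5.72%, 5.49% and 3.19% in Chow and 6.73%, 6.91% and 8.94% in HFpEF, all above Chow. For both the exact permutation test gave p = 0.1. Pik3cd held 12.4%, 18.5% and 14.4% in Chow and 15.8%, 17.6% and 29.7% in HFpEF, which overlapped (exact permutation p = 0.3). Pik3ca remained the most abundant in every library, with 53.5% to 58.8% in Chow and 47.7% to 57.6% in HFpEF.

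**Figure D4:**
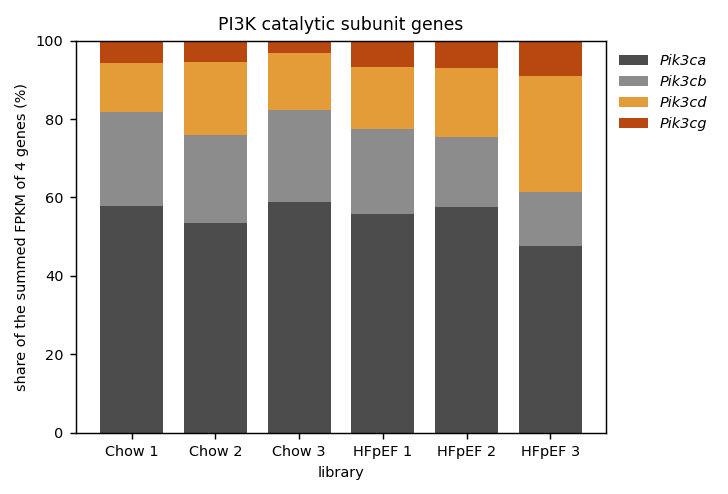
Share of the summed FPKM of the 4 class I PI3K catalytic subunit genes in each library, as stacked bars that add to 100%. The Pik3cb share is at most 21.8% in the HFpEF libraries, and Pik3cd takes 29.7% in HFpEF 3.

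At the level of Akt, 3 of 7 genes had log2 fold changes above 0 and 4 below. The median was -0.18, and -0.04 without HFpEF 3. Pdpk1, the kinase PDK1 that activates Akt, was 5.56, 5.64 and 5.77 FPKM in Chow and 6.16, 5.96 and 5.28 in HFpEF, with a log2 fold change of 0.03 (SE 0.10). Akt1 was 53.2, 58.3 and 56.3 FPKM in Chow and 46.6, 47.8 and 52.2 in HFpEF. It was the most abundant member, and all HFpEF libraries were below Chow (log2 fold change -0.20, SE 0.10, limma adjusted p = 0.301). Under quantile normalization the Akt1 log2 fold change was 0.01, so its direction depends on the scaling.

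Akt2, the form most tied to insulin-driven glucose uptake, was 32.7, 31.3 and 29.0 FPKM in Chow and 28.5, 28.6 and 19.96 in HFpEF. HFpEF 1 and 2 lay just below the lowest Chow library and HFpEF 3 well below it, with a log2 fold change of -0.29 (SE 0.16, limma adjusted p = 0.322) and -0.12 without HFpEF 3. The sum of Akt1 and Akt2 was 85.3 to 89.6 FPKM in Chow and 72.2 to 76.4 in HFpEF. Akt2 made up 38.05%, 34.9% and 34.0% of it in Chow and 37.9%, 37.5% and 27.7% in HFpEF, so the shares overlapped.

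The phosphatases that oppose Akt differed in direction. Inpp5d encodes SHIP1, a lipid 5-phosphatase of blood cells, and lies at chr1:87620312-87720507. It was 1.58, 1.73 and 1.48 FPKM in Chow and 1.92, 2.14 and 4.61 in HFpEF. All HFpEF libraries were above Chow and HFpEF 3 was the highest, with a log2 fold change of 0.71 (SE 0.33, limma adjusted p = 0.247) and 0.33 without HFpEF 3. Its order over the HFpEF libraries was that of Pik3r5.

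Inpp4b, a lipid 4-phosphatase at chr8:81342556-82127914, was 3.95, 4.81 and 5.11 FPKM in Chow and 3.11, 3.98 and 3.39 in HFpEF. HFpEF 2 was just above Chow 1, so the groups overlapped. The log2 fold change was -0.39 (SE 0.15, limma adjusted p = 0.193) and -0.38 without HFpEF 3, so its size hardly rested on that library. The unadjusted limma p was 0.037 with all libraries and 0.061 without HFpEF 3.

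Phlpp1 and Phlpp2 encode protein phosphatases that act on Akt. Phlpp1 was 6.52, 7.31 and 6.56 FPKM in Chow and 6.91, 6.29 and 4.94 in HFpEF, with overlap. Phlpp2 was 1.36, 1.27 and 1.57 FPKM in Chow and 1.61, 1.80 and 2.05 in HFpEF, all above Chow (log2 fold change 0.35, SE 0.17, limma adjusted p = 0.260). The Phlpp2 share of both was 14.8% to 19.3% in Chow and 18.9% to 29.3% in HFpEF.

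The mTOR group had a median log2 fold change of -0.19, and -0.15 without HFpEF 3, with 8 of 11 members below 0 and 2 with an unadjusted p under 0.05, both lower in HFpEF (background 13.1%). The first was Tsc2, at chr17:24595816-24632630, which encodes tuberin, the GTPase-activating protein that switches off Rheb and so mTOR complex 1. Tsc2 was 15.4, 14.4 and 14.8 FPKM in Chow and 12.5, 12.0 and 8.57 in HFpEF. Every HFpEF library was below Chow. The log2 fold change was -0.45 (SE 0.16, limma adjusted p = 0.174) and -0.28 without HFpEF 3 (limma adjusted p = 0.0719). Its neighbour Pkd1 shares 7.20% of its exon bases on the opposite strand.

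Tsc1, the partner that stabilizes tuberin, was 4.41, 4.33 and 3.61 FPKM in Chow and 3.87, 3.94 and 3.02 in HFpEF, with overlap (log2 fold change -0.19, SE 0.15, and -0.07 without HFpEF 3). Tsc2 made up 77.7%, 76.8% and 80.5% of the pair in Chow and 76.3%, 75.2% and 74.0% in HFpEF, all below Chow (exact permutation p = 0.1). The shares differed by little, from a mean of 78.3% to 75.2%. Rheb, the GTPase they control, was 9.70, 9.77 and 10.5 FPKM in Chow and 8.63, 9.40 and 9.47 in HFpEF, with a log2 fold change of -0.12 (SE 0.09).

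The second was Eif4ebp1, at chr8:27260329-27276674, which encodes 4E-BP1, the repressor of cap-dependent translation that mTOR complex 1 inactivates. It was 29.1, 29.8 and 33.2 FPKM in Chow and 25.6, 26.1 and 19.6 in HFpEF. Every HFpEF library was below Chow, with a log2 fold change of -0.38 (SE 0.14, limma adjusted p = 0.187) and -0.25 without HFpEF 3. Rps6kb1, the S6 kinase on the other arm of mTOR complex 1, was 3.92 ± 0.520 FPKM in Chow and 3.83 ± 0.116 in HFpEF (SD, n = 3 each).

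Among the complex subunits, Mtor, the kinase itself, was 7.53, 8.02 and 7.64 FPKM in Chow and 7.47, 5.82 and 5.40 in HFpEF. HFpEF 1 was close to the Chow libraries and the other HFpEF libraries were lower (log2 fold change -0.32, SE 0.14, limma adjusted p = 0.227). Rptor, the scaffold of complex 1, was 4.91, 4.65 and 4.41 FPKM in Chow and 4.11, 4.04 and 3.43 in HFpEF, all below Chow (log2 fold change -0.27, SE 0.12). Rictor, the scaffold of complex 2, was 1.76, 1.85 and 1.95 FPKM in Chow and 2.03, 2.07 and 2.25 in HFpEF, all above Chow (log2 fold change 0.18, SE 0.13). Rictor made up 26.3%, 28.5% and 30.7% of the 2 scaffolds in Chow and 33.0%, 33.9% and 39.6% in HFpEF, which did not overlap. The means were 28.5% ± 2.17 and 35.5% ± 3.60 (SD, n = 3 each, exact permutation p = 0.1).

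The other mTOR members overlapped between groups. Akt1s1, which encodes the inhibitory subunit PRAS40, was 22.5 ± 1.07 FPKM in Chow and 19.1 ± 2.71 in HFpEF (SD, n = 3 each). Mlst8, a subunit of both complexes, was 2.77 ± 0.0938 and 2.91 ± 0.630 FPKM, and it shares 22.5% of its exon bases with Bricd5 on the opposite strand. Deptor, an inhibitor of both complexes, was 2.96 ± 0.292 and 3.11 ± 0.372 FPKM.

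**Figure D5:**
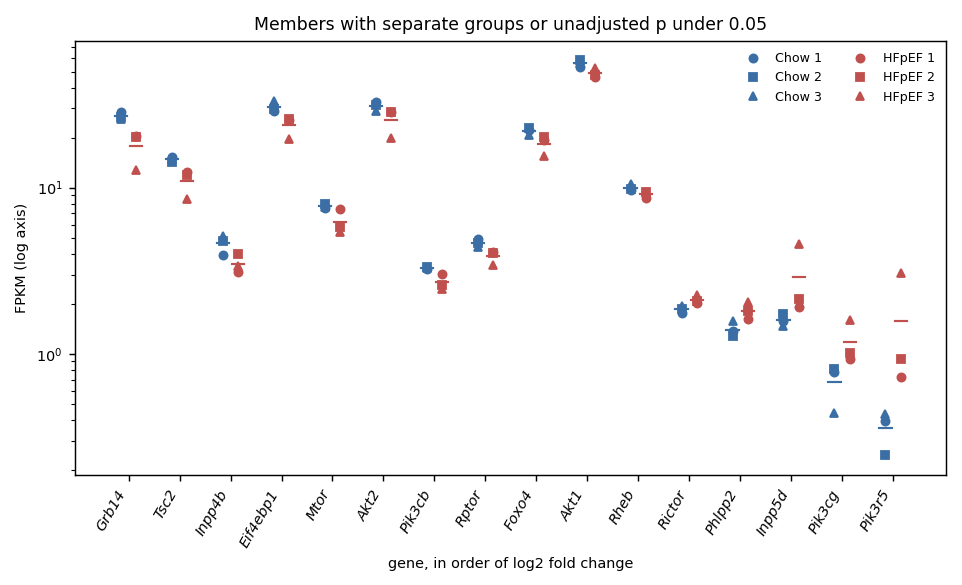
FPKM (log axis) in each library of the 16 members whose groups did not overlap or whose unadjusted p was under 0.05, in order of log2 fold change, with lines at the group means. Chow is blue, HFpEF is red and the shape gives the mouse number, with HFpEF 3 (triangle) lowest for Grb14 at 12.7 FPKM and highest for Pik3r5 at 3.07.

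Downstream of Akt, no member of the GSK3 and FoxO group had an unadjusted p under 0.05, and the median log2 fold change was -0.10, and -0.07 without HFpEF 3. GSK3 restrains glycogen synthesis until Akt phosphorylates it. Gsk3a was 19.0, 19.4 and 16.7 FPKM in Chow and 17.0, 15.6 and 12.6 in HFpEF, with overlap, and 28.3% of its exon bases are shared with a gene on the opposite strand. Gsk3b was 7.89, 7.09 and 7.76 FPKM in Chow and 8.51, 7.53 and 7.92 in HFpEF, also with overlap. The Gsk3b share of both was 29.3%, 26.8% and 31.8% in Chow and 33.3%, 32.6% and 38.6% in HFpEF, which did not overlap (exact permutation p = 0.1).

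The FoxO factors drive atrophy and fasting genes when Akt is inactive. Foxo1 was 4.76, 4.24 and 4.25 FPKM in Chow and 5.14, 4.80 and 4.47 in HFpEF, with overlap. Foxo3 was 14.4, 16.1 and 16.6 FPKM in Chow and 14.1, 15.8 and 13.9 in HFpEF, with overlap. Foxo4, on chromosome X, was 22.2, 22.9 and 20.7 FPKM in Chow and 19.3, 20.1 and 15.6 in HFpEF, all below Chow (log2 fold change -0.26, SE 0.13, limma adjusted p = 0.256, and -0.15 without HFpEF 3). Foxo1 was the least abundant of the 3 in every library, and its share of their sum was 9.81% to 11.5% in Chow and 11.8% to 13.3% in HFpEF, without overlap.

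Sgk1 and Ddit4 are transcripts with short-term control by hormones and stress. Sgk1, a kinase related to Akt and a target of glucocorticoids and FoxO, was 16.3 ± 3.59 FPKM in Chow and 12.6 ± 2.52 in HFpEF (SD, n = 3 each). Ddit4 (REDD1), a stress-induced inhibitor of mTOR complex 1, was 14.0 ± 4.76 and 15.2 ± 6.34 FPKM, with a log2 fold change of 0.08 (SE 0.37). Both overlapped between groups.

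Sorted by sign of action, the 16 signal carriers (receptor, IRS proteins, catalytic subunits, PDK1, Akt, Rheb, mTOR subunits and S6 kinase) had a median log2 fold change of -0.07, with 2 above and 6 below Chow in every HFpEF library (background 15.5% and 19.8%). None had an unadjusted p under 0.05. The 12 inhibitors (Grb10, Grb14, SHIP1, Inpp4b, the Phlpp phosphatases, both Tsc genes, PRAS40, Deptor, 4E-BP1 and Ddit4) had a median of -0.18, with 2 above and 3 below Chow in every HFpEF library (same background). Of the inhibitors 4, namely Grb14, Tsc2, Inpp4b and Eif4ebp1, had an unadjusted p under 0.05 and were lower in HFpEF (background 13.1%). Without HFpEF 3 the order of the medians turned, with -0.12 for the carriers and -0.10 for the inhibitors. There 1 carrier (Akt1) and 3 inhibitors (Grb14, Tsc2 and Eif4ebp1) had an unadjusted p under 0.05, against 25.2% of all genes in either direction. With voom on recovered reads, the carriers Mtor, Rptor, Pik3cb and Pik3cg and the inhibitor Phlpp2 reached that threshold as well, as did 23.6% of all genes in either direction. The difference between the role classes was not tested.

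Further lists of pathway genes were read, which in part repeat members or each other. No gene in them had an adjusted p under 0.05 over the 6 libraries. Without HFpEF 3, Ptprf, Dok1, Lamtor4, Eif4g1, As3mt, Slc2a4, Tbc1d1, Pck1, Sod2 and Trim63 had a limma adjusted p under 0.05, as 8.35% of all genes did. Counts in these lists stand against 10.2% of all genes higher and 13.1% lower at an unadjusted p under 0.05, and the part of cell composition was not tested. Among 19 other insulin receptor adaptors and regulators, 7 had an unadjusted p under 0.05 with a higher level in HFpEF and 1 with a lower level. The median log2 fold change was 0.11, and 0.07 without HFpEF 3. Ptprf, the receptor phosphatase LAR, was 1.40 ± 0.289 FPKM in Chow and 4.45 ± 1.57 in HFpEF (log2 fold change 1.55, SE 0.31, limma adjusted p = 0.0989). Enpp1, a membrane inhibitor of the insulin receptor, was 0.749 ± 0.0784 and 2.26 ± 1.49 FPKM. The adaptors Sh2b2 and Dok1 were 0.151 ± 0.0194 and 1.73 ± 0.323 FPKM in Chow and 0.680 ± 0.136 and 5.45 ± 4.01 in HFpEF. In all 4 the HFpEF libraries were above Chow. Without HFpEF 3 the log2 fold change went from 1.31 to 0.83 for Enpp1 and from 1.39 to 0.83 for Dok1.

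Of 13 other PI3K enzymes and regulators, 1 had an unadjusted p under 0.05 in each direction. Inpp4a, the relative of Inpp4b, was higher in every HFpEF library (log2 fold change 0.36, SE 0.12), opposite to Inpp4b. Pik3c2b, a class II PI3K, was lower in every HFpEF library (log2 fold change -0.35, SE 0.12). Of 14 mTORC2 and other Akt-level genes, 1 was higher and 3 were lower at that threshold. The latter were Trib2, a pseudokinase that binds Akt, the chaperone partner Cdc37 and the PP2A catalytic subunit Ppp2ca, with log2 fold changes of -0.40, -0.30 and -0.23. The PP2A scaffold Ppp2r1b was the higher one (log2 fold change 0.64).

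Among 29 genes of amino acid and energy input to mTOR complex 1, 2 were higher and 7 lower at an unadjusted p under 0.05. The Ragulator subunits Lamtor4 and Lamtor2, which anchor the complex at lysosomes, had log2 fold changes of -0.48 and -0.34, with every HFpEF library below Chow. Slc3a2, the heavy chain of amino acid transporters, and Sesn3, a sestrin, had log2 fold changes of 0.43 and 0.44. Of 22 outputs of mTOR complex 1, 1 was higher and 4 were lower. Eif4e, the cap-binding protein that 4E-BP1 represses, was 24.2 ± 0.433 FPKM in Chow and 17.9 ± 2.53 in HFpEF. Its scaffold Eif4g1 was 72.8 ± 2.11 and 57.8 ± 3.65 FPKM. Eif4ebp3, another 4E-BP, was 0.608 ± 0.156 and 1.28 ± 0.381 FPKM. The autophagy kinase Ulk1 was 20.2 ± 1.17 and 15.5 ± 2.32 FPKM.

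Of 15 other Akt substrates and related genes, 1 was higher and 3 were lower at an unadjusted p under 0.05. Slc2a4, which encodes the insulin-responsive glucose transporter GLUT4, was 127, 127 and 117 FPKM in Chow and 95.0, 94.9 and 46.2 in HFpEF. All HFpEF libraries were below Chow, and HFpEF 3 lay lowest (log2 fold change -0.72, SE 0.29, limma adjusted p = 0.204, and -0.38 without HFpEF 3). Tbc1d1, a Rab GTPase-activating protein of GLUT4 vesicles, was 2.62, 2.45 and 4.24 FPKM in Chow and 14.1, 10.2 and 3.77 in HFpEF. Its 3 highest libraries, HFpEF 1, HFpEF 2 and Chow 3, were the libraries with atrial RNA, whose part was not tested. Pfkfb2, the cardiac activator of glycolysis, was 8.13 ± 0.0544 and 6.04 ± 1.13 FPKM (log2 fold change -0.44, and -0.28 without HFpEF 3). As3mt, an arsenic methyltransferase that was on the list although it is not an Akt substrate, was 33.4 ± 2.67 and 22.0 ± 3.67 FPKM.

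The 23 FoxO target genes tested had a median log2 fold change of -0.38, and -0.19 without HFpEF 3, with 2 higher and 10 lower at an unadjusted p under 0.05 (background 10.2% and 13.1%). The 10 include the member Eif4ebp1, and Sesn1, Sesn3 and Pdk4 are on other lists as well. The median log2 ratio to the Chow mean was -0.64 in HFpEF 3. Ventricular cardiomyocyte markers had a median log2 fold change of -0.68, and -0.41 without HFpEF 3, and their part in the FoxO target levels was not tested. Trim63, the muscle ubiquitin ligase MuRF1, was 74.7 ± 5.69 FPKM in Chow and 47.4 ± 8.07 in HFpEF (log2 fold change -0.67, SE 0.16, limma adjusted p = 0.115). Gadd45a, a growth arrest gene, was 9.01 ± 1.58 and 5.68 ± 1.18 FPKM. Pck1, the gluconeogenic enzyme of liver and fat, was listed at 0, 0.0747 and 0 FPKM in Chow and at 8.58, 7.11 and 1.19 in HFpEF. Like Cfd, it was lowest in HFpEF 3 among the HFpEF libraries. The part of adipose RNA in its level was not tested.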

How the data were processed

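RNA sequencing was examined in hearts of 3 Chow and 3 HFpEF mice, each library from a distinct mouse. The tests thus rest on the spread between libraries of different mice, which includes their unlike amounts of atrial RNA. The groups follow the sample labels. The authors aligned reads with HISAT2, counted them with featureCounts and deposited FPKM per gene. The labels name GRCm38 (mm10), and the annotation release, the strand setting and the formula are not given in the sources used here. No column of the authors' own comparisons was present. The study's count test was not used, because the deposited unit is FPKM.

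FPKM was divided by median-of-ratios factors, which were 0.999 to 1.00, so the deposited values were already scaled between libraries, by a step that is not given in the sources used here and that moves the values beyond read number (factors of 0.897 to 1.27 relative to recovered reads). Genes that reached 0.5 FPKM in 3 or more libraries were fitted as log2(FPKM + 0.1) with limma 3.58.1 in R 4.3.3 (lmFit, eBayes with trend and robust options), with Benjamini-Hochberg adjustment over 14227 genes. The threshold was an adjusted p under 0.05, and DEGs in the sense of the study's methods also had a log2 fold change of 2 or more in size. Fold changes on this scale understate those of low genes. Single levels and shares were compared with a permutation test, exact and two-sided, for which 0.1 is the smallest p. Read numbers were recovered from FPKM and GENCODE M21 exon lengths, and 96.1% to 96.2% of the values above 0 were whole at a relative tolerance of 1e-06. On simulated data (14222 genes), 163 of 200 genes changed 1 log2 unit were called, with 18 unchanged genes. Both groups were drawn from the Chow means with the same dispersion (0.02) for all genes and without an outlying library such as HFpEF 3. The changed genes were picked above a minimum read number. The simulation therefore checks the code and does not give the power or error rate in these data.

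All members were accounted for. Values in 6 libraries were given for members with an unadjusted p under 0.05, without overlap, or used in shares. Up to 4 genes of lowest p were named from each further list, and up to 4 of the most abundant from marker lists. Markers with an adjusted p under 0.05, and list genes that reached it without HFpEF 3, were named after their values were seen. The members, lists and tests were chosen with earlier results of these data known, so counts over them are descriptions. As alternatives, other scalings, pseudocounts, filters, limma settings, voom on recovered reads, a replicate block and each library left out in turn were used. Figures were drawn with Python 3.11.15 and matplotlib 3.10.9.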

Additional observations from a re-analysis of the deposited data

How the results depend on the processing

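Over 16 alternatives, 27 members kept the direction of their log2 fold change and 11 did not. The count of members with an adjusted p under 0.05 was 0 in 14 of them, and leaving out each library in turn gave 0 to 1, where the 1 was Grb14 without HFpEF 3 (adjusted p 0.0272 by limma, against 0.0027 to 0.363 over all alternatives). The count with an unadjusted p under 0.05 was 10 of 38 with voom on recovered reads (background 23.6% of all genes), which added Mtor, Rptor, Pik3cb, Phlpp2 and Pik3cg. It was 1 to 9 of 38 with a library left out. It was 3, 1 and 2 without Chow 1, 2 and 3 (background 14.6%, 13.4% and 14.8%) and 9 without HFpEF 1 (background 24.8%). The median log2 fold change was -0.11 with a filter of FPKM of at least 1, which removed 2 members, and -0.15 to -0.019 with a library left out (-0.10, -0.13 and -0.019 without Chow 1, 2 and 3, and -0.15 without HFpEF 2). With Chow 1, Chow 2 and HFpEF 3 only, an alternative chosen after seeing the marker levels, the counts were 14 adjusted, 19 unadjusted and 32 without overlap, and the directions of Pdpk1 (-0.085), Rps6kb1 (0.081) and Foxo1 (-0.0047) turned. In that subset, with its single HFpEF library, 87.1% of all genes tested were without overlap, so 32 of 38 members is not an excess. Under quantile normalization the directions of Irs2 (-0.042), Pik3r3 (-0.021), Akt1 (0.0057), Mlst8 (-0.053) and Deptor (-0.034) turned. With a library left out, the log2 fold change ranged from -0.22 to 0.29 for Irs2, -0.13 to 0.19 for Grb10, -0.028 to 0.13 for Pik3r1, -0.047 to 0.23 for Pik3r3, -0.012 to 0.098 for Pdpk1, -0.11 to 0.17 for Mlst8, -0.025 to 0.14 for Deptor, -0.14 to 0.039 for Rps6kb1 and -0.21 to 0.43 for Ddit4. The Akt2 share ranged from -3.10 to 2.05 percentage points, the highest without HFpEF 3. The causes were not tested.

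The replicate numbers are shared by the groups but were not treated as pairs. Same-numbered libraries deviated from their group means with correlations of -0.04, -0.07 and -0.06. With 3 libraries in a group and HFpEF 3 far from the rest, these values cannot decide whether samples were paired. With a replicate block, 5 members had an unadjusted p under 0.05 and 0 an adjusted p under 0.05, with Sgk1 in place of Eif4ebp1. Counts limit Pik3r5 most, with 16 to 31 reads in the Chow libraries.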

Other observations

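Sgk1 and Ddit4 are also known as glucocorticoid-responsive genes, and 19 such genes were read as a list. Of these, 5 had an unadjusted p under 0.05 with a higher level in HFpEF and 1 with a lower level, and none had an adjusted p under 0.05, while Cdkn1a had one without HFpEF 3. The background was 10.2% higher and 13.1% lower, and the median log2 fold change was 0.01. Fkbp5, the chaperone induced by the glucocorticoid receptor, was 1.54 ± 0.196 FPKM in Chow and 2.83 ± 0.871 in HFpEF (SD, n = 3 each, log2 fold change 0.80). The transcription factor gene Cebpd was 5.30 ± 0.852 and 9.20 ± 2.77 FPKM. The metallothionein gene Mt2 was 1.57 ± 0.913 and 3.98 ± 1.39 FPKM. All 3 were higher in each HFpEF library than in any Chow library. Pdk4, a kinase that blocks glucose oxidation, was lower in every HFpEF library, at 124 ± 6.14 FPKM in Chow and 95.6 ± 9.38 in HFpEF. Sgk1 and Ddit4 overlapped between groups.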
